A study of Mus musculus with 14 samples.

Results

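The neuropeptide Y and adrenomedullin system is taken here as 7 genes: the peptide genes Npy and Adm, the neuropeptide Y receptor Npy1r, the adrenomedullin receptor core Calcrl, and the receptor activity-modifying proteins Ramp1, Ramp2 and Ramp3. They were chosen by symbol, and all their probe sets were taken: 15 of the 45101 probe sets on the array, of which 13 carry 1 gene symbol and 2 name Ramp2 together with its neighbour Vps25. Npy entered because its level was lower in Cre+ than in control endothelium of both beds, so its values in those comparisons are a description with no test; the other 6 genes are vascular peptide signals. Of the 18193 genes on the array, 13034 were bright enough to be tested, among them 6 of the 7 members; Npy1r was too dim.

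RNA from 14 mouse samples was hybridised to Affymetrix mouse genome expression arrays, 1 array per sample, in a study of the FoxO forkhead transcription factors in endothelium. All mice, controls included, had the background FVBn and floxed (L/L) alleles of Fk1, Fk2 and Afx, older names of Foxo1, Foxo3 and Foxo4. Controls were MxCre- and the others MxCre+, called Cre+ here; the Mx promoter that drives Cre is inducible by interferon and is not restricted to endothelium. Liver sinusoidal endothelial cells (LSEC) came as 3 controls and 3 Cre+ samples. Lung endothelial cells had 2 samples per genotype, and so had thymus. No source used here gives the age of the mice, the induction of Cre, the cell isolation or whether 1 animal gave more than 1 replicate, so p-values measure the spread between these samples, which may be technical.

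Neuropeptide Y is a peptide of sympathetic nerves that constricts vessels and acts through G protein-coupled receptors that lower cAMP; NPY1R is the main vascular one. Adrenomedullin is a peptide that endothelial cells release and that dilates vessels and keeps the endothelial barrier tight. Its receptor is the calcitonin receptor-like receptor, encoded by Calcrl, which reaches the cell surface only with a RAMP: with RAMP2 or RAMP3 it binds adrenomedullin, with RAMP1 it binds calcitonin gene-related peptide (CGRP), and both couple to cAMP formation. The FoxO proteins bind DNA at forkhead motifs, and Adm is a known target of the hypoxia-inducible factors, which bind short motifs with a CGTG core.

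The 250 bases upstream of the transcription start are shown for the peptide genes, whose probe sets differed most between Cre+ and control arrays, and for Calcrl, the receptor core. They are RefSeq sequences of GRCm38.p6, written 5′ to 3′ along the gene, with the only motif found in them, GCGTG, in capitals on whichever strand it lies (CACGC when on the other).
Npy (GRCm38.p6, chr6:49822460-49822709, plus strand): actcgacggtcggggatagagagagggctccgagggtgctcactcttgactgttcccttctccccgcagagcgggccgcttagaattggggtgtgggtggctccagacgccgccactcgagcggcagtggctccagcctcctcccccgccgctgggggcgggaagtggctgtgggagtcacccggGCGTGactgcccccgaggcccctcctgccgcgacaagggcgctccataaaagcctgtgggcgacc
Adm (GRCm38.p6, chr7:110627407-110627656, plus strand): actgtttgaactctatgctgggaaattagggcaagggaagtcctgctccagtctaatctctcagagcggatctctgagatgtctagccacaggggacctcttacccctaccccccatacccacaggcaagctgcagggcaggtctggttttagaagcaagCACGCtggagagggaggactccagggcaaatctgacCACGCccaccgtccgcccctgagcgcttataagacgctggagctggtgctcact
Calcrl (GRCm38.p6, chr2:84425267-84425516, minus strand): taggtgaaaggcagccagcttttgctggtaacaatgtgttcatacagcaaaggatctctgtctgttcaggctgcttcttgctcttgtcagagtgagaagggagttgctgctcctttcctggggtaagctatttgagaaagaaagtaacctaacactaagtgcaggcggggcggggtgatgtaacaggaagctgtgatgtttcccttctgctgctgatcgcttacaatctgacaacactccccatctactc
Promoters of 6 of the 7 members were in the table used, without Ramp2. Both strands were searched for the forkhead motif GTAAACA, the longer FoxO form TTGTTTAC (whose reverse complement holds GTAAACA), the hypoxia response cores ACGTG and GCGTG, the GATA motif GATAAG and the cAMP response element TGACGTCA. GCGTG occurred in 3 of the 6, in Npy 65 bases upstream of the start, in Adm 90 and 54 bases upstream, and in Ramp3 219 and 65 bases upstream; 28.2% of the 32851 mouse promoters of that length hold it. The other motifs were found in none of the 6, and are held by 3.17% (GTAAACA), 1.07% (TTGTTTAC), 16.6% (ACGTG), 6.55% (GATAAG) and 1.55% (TGACGTCA) of all promoters. A match or its absence describes these letters in this window only.

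Levels below are log2 values after quantile normalization, each gene shown by its brightest probe set with 1 symbol unless another is named, and differences are Cre+ minus control. Probe sets whose highest tissue mean was under 6.87, the filter limit, were left out as dim. Adjusted p-values are from limma over all 13034 genes of a comparison, with a threshold of 0.05, and fits on single probe sets were adjusted over 27022 probe sets. The arrays of a group correlated at 0.970 to 0.987 and those of different tissues at 0.584 to 0.838. Of the floxed genes, the Foxo1 probe set 1416983_s_at had log2 differences of -3.56, -1.29 and -1.80 in LSEC, lung endothelium and thymus, and the Foxo4 probe set 1456753_at differed by -2.15, -1.10 and -3.24. The other probe sets of both genes differed by less. Foxo1 1416982_at gave -2.10, -1.06 and -1.02, and the brighter 1416981_at gave -0.93, -0.51 and -1.19. Under the filter limit, Foxo1 1456529_at gave 1.73, -0.37 and -0.67 and Foxo4 1422149_at gave -0.10, -0.61 and -0.07. The Foxo3 probe set 1434832_at differed by -0.53, 0.10 and 0.68, so it was not lower in Cre+ lung or thymus. Nor were Foxo3 1434831_a_at (-0.58, 0.30 and 0.46) and 1450236_at (-0.29, 0.01 and 0.02). No source used here says where these probe sets lie relative to the floxed parts. The 12 pan-endothelial marker genes were all above the filter limit in both endothelia. Lung endothelial arrays also held fibroblast markers (array means of 9.58 to 9.85) and lung epithelial markers (9.67 to 9.83). Both endothelia held macrophage markers. Their array means were 8.44 to 9.62 in control and 8.21 to 9.57 in Cre+ LSEC. In lung they were 8.43 to 8.50 in control and 8.82 to 8.996 in Cre+. Limma called none of the 9 tested macrophage genes in LSEC or lung, also 0 at an unadjusted p under 0.05. The part of macrophages in the values of the members was not tested. In bulk samples such as these, fewer cells of a type and less RNA per cell cannot be told apart.

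Npy was lower in the Cre+ arrays of both endothelial beds, and by more in lung. In LSEC the probe set 1419127_at read 9.37, 9.29 and 9.20 on the control arrays and 7.56, 8.29 and 8.03 on the Cre+ arrays. Every Cre+ array lay below every control array, and 23.7% of all genes had LSEC groups that did not overlap. The means of 9.29 ± 0.0857 (SD, n = 3) and 7.96 ± 0.366 (SD, n = 3) differed by -1.33, a 2.51-fold lower level. In lung endothelium it read 10.48 and 10.22 in control and 6.70 and 7.63 in Cre+ arrays, means of 10.35 ± 0.184 and 7.16 ± 0.661 (SD, n = 2 each). That difference of -3.18, or 9.08-fold, was the most negative of the 13034 genes in lung, while in LSEC Npy stood in place 83 from the most negative. The lower of the 2 Cre+ lung arrays was under the filter limit and the other above it. The spread of that group (SD 0.661) was the widest of the 6. These are the values that chose the gene.

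The rule used no thymus value of Npy. Thymus arrays read 5.26 and 5.20 in control and 5.47 and 5.23 in Cre+, all under the filter limit, with overlapping groups and a difference of 0.12 (SE 0.274, adjusted p = 0.913). The order of the means was control lung, control LSEC, Cre+ LSEC, Cre+ lung, Cre+ thymus and control thymus. The Cre+ LSEC and Cre+ lung arrays overlapped, as did both thymus groups; no other neighbours in that order did.

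Other sources of Npy RNA were looked at through marker genes. Of 14 sympathetic and chromaffin markers, 13 were on the array, 6 were bright enough to be tested and none was called in LSEC or lung by limma, with 1 and 2 at an unadjusted p under 0.05. Their array means ran from 6.38 to 6.69 in control LSEC, from 6.42 to 6.65 in Cre+ LSEC, and from 6.62 to 6.71 in control and 6.13 to 6.54 in Cre+ lung. These means cover all 13 genes, those under the filter limit included. The lung ranges did not overlap, and no marker value stood at 0. The medians of the 6 tested differences were -0.22 in LSEC and -0.25 in lung. Uchl1, the brightest in LSEC, read 10.24 and 9.67 in control and Cre+ LSEC and 8.41 and 7.89 in lung. Th, the rate-limiting enzyme of catecholamine synthesis, read 8.19 and 8.06 in LSEC and 8.14 and 7.75 in lung. Thymus stood at 8.23 and 7.93, so the Th level did not set the tissues apart. The synaptic gene Snap25 was at group means of 2.70 to 5.39 in the endothelia. Among dim genes, Slc18a2 read 5.46 and 4.23 and Elavl4 5.40 and 6.19 in control and Cre+ lung. Megakaryocyte and platelet markers, from cells that also carry neuropeptide Y in mice, had array means of 8.06 to 8.20 and 7.82 to 8.02 in LSEC and of 7.37 to 7.49 and 7.41 to 7.44 in lung (control, then Cre+), with 1 of 8 called in LSEC (Clec1b, lower, which these control LSEC also held at a mean of 11.21) and 0 of 8 in lung, also 0 at an unadjusted p under 0.05. The medians of the 8 differences were -0.17 in LSEC and -0.11 in lung. Single platelet genes went both ways: Pf4 stood at 9.74 and 10.35 in LSEC and 10.16 and 10.79 in lung, in control and Cre+, and Itgb3 at 11.05 and 10.00 and at 8.93 and 8.35. The part of these cells in the Npy values was not tested.

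Npy1r, the receptor through which neuropeptide Y constricts vessels, was not measured above the filter limit in any tissue mean. Its brighter probe set, 1426054_at, read 6.54, 6.58 and 6.93 on control LSEC arrays, 6.43, 6.93 and 6.71 on Cre+ LSEC arrays, 6.24 and 6.38 in control and 6.88 and 6.44 in Cre+ lung, and 6.33 and 6.43 in control and 6.32 and 5.99 in Cre+ thymus. The groups overlapped in LSEC and stood apart in lung and in thymus, in opposite directions, within a range of 1 log2 unit and near the limit. Among all genes tested, 38.4% in lung and 41.6% in thymus had groups that did not overlap. The other probe set, 1421471_at, ranged from 1.94 to 4.87 over the 14 arrays, so no receptor difference can be read at these intensities.

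**Figure D1:**
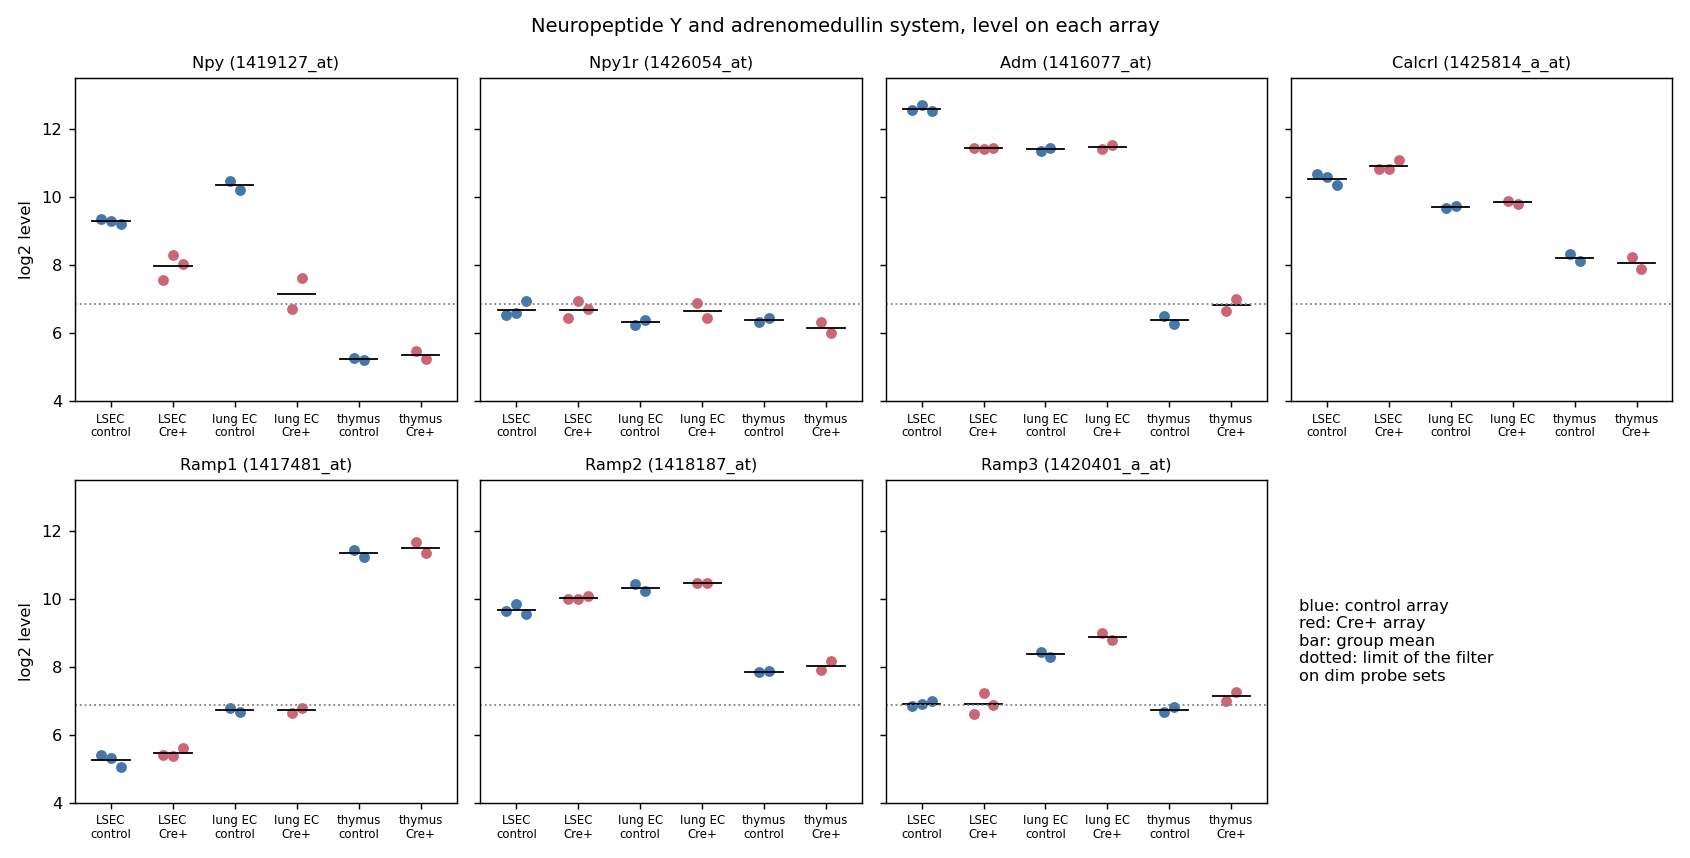
Level of each member on each of the 14 arrays, as log2 after quantile normalization (vertical axis), by group (horizontal axis), for the brightest probe set with 1 symbol; points are arrays, bars are group means and the dotted line is the filter limit of 6.87. Npy is lower in both Cre+ endothelia, Adm is lower in Cre+ LSEC alone among the Cre+ endothelia, and Ramp1 is high only in thymus.

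Adm fell in Cre+ LSEC, by 2.24-fold. The probe set 1416077_at read 12.56, 12.72 and 12.53 on control LSEC arrays. On the Cre+ LSEC arrays it read 11.45, 11.41 and 11.46. All lay below every control array, and 23.7% of all genes had LSEC groups that did not overlap. The groups stood apart by about 10 times their own spread, with means of 12.60 ± 0.103 and 11.44 ± 0.0277 (SD, n = 3 each), and the difference was -1.16 (SE 0.0999, adjusted p = 7.42e-05). Of the 5 members tested in LSEC besides Npy, Adm was the only one called, against 6.06% of all genes called there (790 genes, 2.81% higher and 3.25% lower).

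A second probe set, 1447839_x_at, gave the same picture. Control LSEC arrays read 12.51, 12.56 and 12.40 there, and Cre+ arrays 11.20, 11.12 and 11.34. Its difference was -1.27 (SE 0.106, adjusted p = 8.99e-05 in the fit on single probe sets, in which 5.23% of probe sets were called, 2.62% higher and 2.61% lower).

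In lung endothelium Adm was as bright in Cre+ as in control arrays. It read 11.36 and 11.46 in control and 11.43 and 11.53 in Cre+ arrays, and the groups overlapped. The difference of 0.07 (95% interval -0.20 to 0.34, adjusted p = 1) took the opposite sign with other scalings (-0.02 with median centring and -0.03 as deposited), and the second probe set differed by 0.01. None of the 5 members tested in lung was called by limma, against 0.107% of all genes (14 genes); at an unadjusted p under 0.05 there was 1, Ramp3. The 14 became 2 to 4 when any 1 lung array was left out.

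The difference between the beds was itself tested. The Cre+ effect on Adm in LSEC minus that in lung was -1.24 (SE 0.158, adjusted p = 0.00901), where 0.614% of all genes were called (80 genes, and 4 to 29 without any 1 lung array). The second probe set gave -1.28 (adjusted p = 0.0169). The call was lost without lung control replicate 1 (adjusted p = 0.062), lung Cre+ replicate 1 (0.0574) or lung Cre+ replicate 2 (0.0522), while the difference stayed between -1.29 and -1.18 when any 1 array was left out.

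In thymus Adm was dim, at 6.49 and 6.28 in control and 6.66 and 6.99 in Cre+ arrays. The groups did not overlap, as for 41.6% of all genes in thymus, and the difference of 0.44 (SE 0.122) missed the threshold (adjusted p = 0.153); without thymus Cre+ replicate 1 it was 0.61 (adjusted p = 0.0423). The second probe set overlapped between the groups and differed by -0.05 (adjusted p = 0.936). None of the 6 members tested in thymus was called, against 0.414% of all genes (54 genes), with 2 at an unadjusted p under 0.05, Adm and Ramp3. The LSEC effect on Adm minus the thymus effect was -1.61 (SE 0.158, adjusted p = 0.000771), where 2.34% of all genes were called. The second probe set gave -1.22 (adjusted p = 0.00804 over probe sets). The lung effect minus the thymus effect was -0.37 (adjusted p = 0.645), where 0.0307% of all genes were called.

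In the order of the 6 means of 1416077_at, control LSEC stood first and apart, and Cre+ lung, Cre+ LSEC and control lung followed with overlapping arrays. On the second probe set the Cre+ LSEC arrays (11.12 to 11.34) lay above every lung array (10.97 to 11.09), and as deposited, before quantile normalization, so did those of the first (11.42 to 11.58 against 11.29 to 11.40). Both thymus groups were lowest.

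Markers of the sinusoidal type moved with Adm in LSEC. Of 10 LSEC marker genes, 9 were called lower in Cre+ LSEC, among them Lyve1, a hyaluronan receptor, and Fcgr2b, an Fc receptor. The other, Oit3, read 11.51 in control and 10.28 in Cre+, and all 10 were at an unadjusted p under 0.05 by limma. Array means of the list were 10.45 to 11.06 in control and 8.50 to 9.33 in Cre+. In lung the same list had array means of 7.68 to 7.70 in control and 7.66 to 7.77 in Cre+, and none was called, also 0 at an unadjusted p under 0.05. Of the 12 pan-endothelial markers, 3 were called lower in Cre+ LSEC (Pecam1, Cldn5 and Robo4), and 5 were at an unadjusted p under 0.05. Array means were 10.41 to 10.77 in control and 9.97 to 10.25 in Cre+. In lung 0 of 12 were called, with 3 at an unadjusted p under 0.05. Array means there were 9.54 to 9.86 in control and 9.29 to 9.39 in Cre+. Other lists moved in Cre+ LSEC as well. Of 8 fibroblast and stellate genes 2 were called lower (Col1a2 and Pdgfra), with array means of 6.82 to 7.37 in control and 6.23 to 6.87 in Cre+. Of 7 lymphatic genes Flt4 was called lower. The neutrophil gene S100a8 and the hepatocyte gene Ttr were called higher. The part of these shifts in the Adm and Npy values was not tested.

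**Figure D2:**
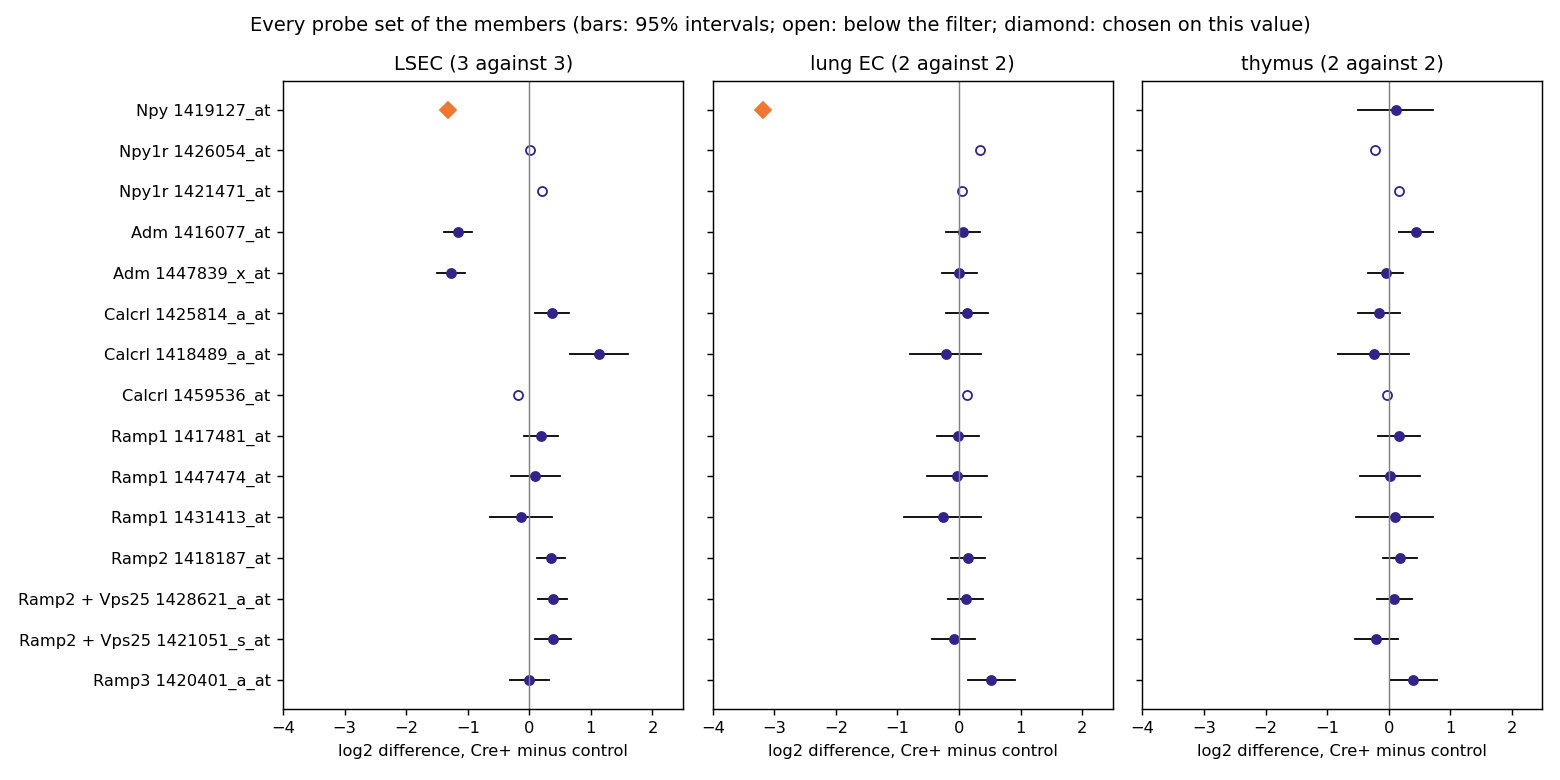
Difference of Cre+ from control (log2, horizontal axis) for each of the 15 probe sets in the 3 tissues, with 95% intervals of the single probe set fit; open circles are below the filter and diamonds are the Npy values that chose the gene. Both Adm probe sets sit left of 0 in LSEC, with intervals that cover 0 in lung, and the Calcrl probe set 1418489_a_at sits right of 0 in LSEC.

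Calcrl, the receptor core shared by adrenomedullin and CGRP, read higher in Cre+ LSEC on both probe sets bright enough to test, and 1 of them passed. The brighter, 1425814_a_at, gave levels of 10.68, 10.60 and 10.35 for control LSEC against 10.82, 10.83 and 11.09 for Cre+ LSEC. The groups did not overlap, as for 23.7% of all genes in LSEC, but the difference of 0.37 (SE 0.123) missed the threshold (adjusted p = 0.113 over genes). The second, 1418489_a_at, gave 6.79, 7.75 and 7.49 for control LSEC against 8.48, 8.31 and 8.64 for Cre+ LSEC.

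On that second probe set the rise was 1.14 (SE 0.214, adjusted p = 0.0115 over probe sets), or 2.20-fold, with the lowest control array just under the filter limit. In lung it was under the limit throughout, at 6.28 and 6.32 in control and 5.82 and 6.34 in Cre+ arrays. The LSEC effect was not shown to differ from that in lung (1.35, adjusted p = 0.15) or thymus (1.38, adjusted p = 0.0711). The Calcrl probe sets therefore disagreed in the size of the LSEC difference, and the remaining one, 1459536_at, stayed between 5.27 and 6.51 on all arrays, below the limit.

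In lung the brighter Calcrl probe set read 9.69 and 9.75 in control and 9.90 and 9.81 in Cre+ arrays, a difference of 0.13 (adjusted p = 1). In thymus it read 8.32 and 8.12, and 8.25 and 7.89, with overlapping groups (-0.15, adjusted p = 0.745). Calcrl was thus brightest in LSEC, lower in lung and lowest in thymus, in Cre+ and control arrays alike.

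Ramp2, the partner that makes Calcrl an adrenomedullin receptor in vessels, was a little higher in Cre+ LSEC without passing the threshold. Control LSEC arrays stood at 9.65, 9.85 and 9.56, and the Cre+ ones at 10.00, 9.99 and 10.10. All Cre+ arrays were above all control arrays, where 23.7% of all genes had groups that did not overlap. The difference was 0.35 (SE 0.101, 95% interval 0.12 to 0.57, adjusted p = 0.0713). It passed without LSEC control replicate 2 (0.43, adjusted p = 0.0493) and with a variance trend and robust fit (adjusted p = 0.0416). Both probe sets that name Ramp2 and Vps25 differed by 0.38 (adjusted p = 0.0703 and 0.135), but their reads from the 2 genes cannot be told apart.

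In lung Ramp2 read 10.43 and 10.24 in control and 10.48 and 10.47 in Cre+ arrays (0.14, adjusted p = 1). In thymus it read 7.84 and 7.87 in control and 7.89 and 8.18 in Cre+ arrays (0.18, adjusted p = 0.608). On this probe set the Cre+ arrays were the higher ones in all 3 tissues, by less than the threshold of the test could call. Groups did not overlap for 23.7%, 38.4% and 41.6% of all genes in LSEC, lung and thymus. Of the probe sets shared with Vps25, 1421051_s_at differed by -0.09 in lung and -0.20 in thymus, and 1428621_a_at by 0.11 and 0.10.

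Ramp3, the other adrenomedullin partner, was near the filter limit in LSEC and thymus and above it in lung. In LSEC it read 6.85, 6.89 and 6.99 in control and 6.61, 7.22 and 6.88 in Cre+ arrays, a difference of 0.00 in size (adjusted p = 0.994). In lung it read 8.44 and 8.29 in control and 8.99 and 8.78 in Cre+ arrays; the groups did not overlap, as for 38.4% of all genes in lung, and the difference of 0.52 (SE 0.172) was not called (adjusted p = 0.764). In thymus it read 6.65 and 6.81 in control and 7.0 and 7.27 in Cre+ arrays (0.40, adjusted p = 0.375). The LSEC effect minus the lung effect was -0.53 (adjusted p = 0.486).

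Ramp1, the partner that makes Calcrl a CGRP receptor, was bright in thymus and not in endothelium on 2 of its 3 probe sets. The probe set 1417481_at read 11.44 and 11.24 in control and 11.68 and 11.35 in Cre+ thymus, where all 9 T lineage markers on the array were above the limit at array means of 11.42 to 11.60. In endothelium it stayed below the limit, at 5.41, 5.32 and 5.04 for control LSEC, at 5.39, 5.36 and 5.60 for Cre+ LSEC and at 6.79 and 6.67 in control and 6.63 and 6.79 in Cre+ lung. Cre+ and control groups overlapped in every tissue, with differences of 0.19, -0.02 and 0.17 in LSEC, lung and thymus (adjusted p = 0.436, 1 and 0.715).

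The Ramp1 probe sets did not give the same tissue pattern. The probe set 1431413_at also read high in thymus (8.01 to 8.26) and low in endothelium (4.52 to 5.59). The remaining one, 1447474_at, read 7.21 to 7.91 in endothelium and 6.84 to 7.19 in thymus, and under median centring or the deposited values it was the brightest by the rule and turned the sign of the gene's tissue differences.

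**Figure D3:**
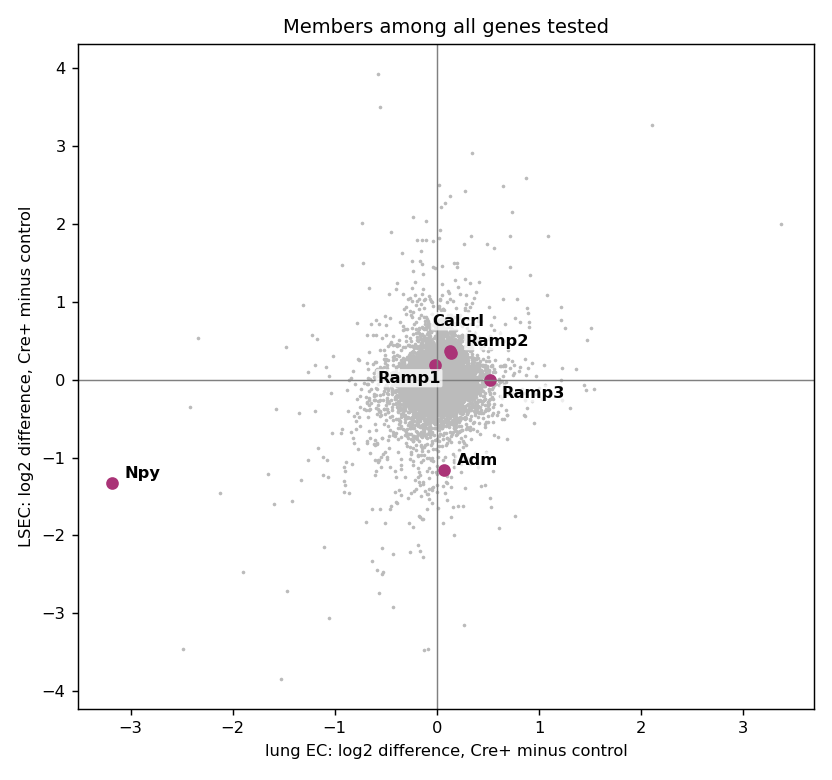
Difference of Cre+ from control in LSEC (vertical axis, log2) against that in lung endothelium (horizontal axis, log2) for the 13034 genes tested (grey), with the 6 tested members marked. Npy lies at -3.18 in lung and -1.33 in LSEC, Adm at 0.07 and -1.16, Ramp3 at 0.52 and 0.00, and Calcrl and Ramp2 at 0.13 and 0.14 in lung and 0.37 and 0.35 in LSEC.

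Where the members stood in control arrays differed by tissue, and the 3 comparisons share those arrays. Npy is left out of these counts, since its control arrays had entered its choice. Between control LSEC and control lung endothelium all 4 members with a mean above the filter limit in either bed were called, against 46.1% of all genes. Adm and Calcrl were higher in LSEC, by 1.20 (adjusted p = 8.96e-06) and 0.83 (adjusted p = 0.000545). Ramp2 and Ramp3 were higher in lung, with LSEC minus lung differences of -0.65 and -1.45 (adjusted p = 0.000698 and 2.63e-05). Ramp1, under the limit in both beds, was not compared between them.

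Against thymus, control LSEC had 4 of 5 members called (64.9% of all genes) and control lung 5 of 5 (60.5%). On the probe sets used, Adm reached the filter limit in endothelium alone and Ramp1 in thymus alone. The filter thus helped to set their calls in these counts, and their values are given as a description. Adm was higher in LSEC and in lung than in thymus (log2 differences 6.22 and 5.02). Control thymus was under the filter limit, so the folds are given against that limit, 53.3-fold for LSEC and 23.3-fold for lung. Ramp1 was lower in LSEC and in lung than in thymus on 1417481_at (-6.09 and -4.61) but higher on 1447474_at (0.63 and 0.56). Calcrl was 2.33 and 1.50 higher and Ramp2 1.83 and 2.48 higher (adjusted p = 3.91e-08, 4.52e-06, 5.58e-08 and 1.5e-08). Ramp3 was 1.63 higher in lung than in thymus (adjusted p = 6.85e-06) and did not differ beyond the threshold between LSEC and thymus (0.18, adjusted p = 0.342).

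Other genes of these pathways were followed in lists. Apart from Npy, 3 genes were tested in the list of NPY family peptides, receptors and Dpp4, a protease that trims neuropeptide Y, and limma called none of them in LSEC or lung, also 0 at an unadjusted p under 0.05. Dpp4 differed by -0.54 in LSEC (adjusted p = 0.27), Pyy by 0.22 and Npy4r by 0.16. The median of the 3 in LSEC was 0.16 and that of all genes 0.01.

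Of 9 genes tested in the calcitonin family list, Adm was the one called in LSEC and none was called in lung or thymus, where 2 and 2 were at an unadjusted p under 0.05. The related peptide Adm2 differed by 0.23 in LSEC (adjusted p = 0.45) and Ackr3, a scavenger receptor that takes up adrenomedullin, by -0.37 in LSEC (adjusted p = 0.233) and -0.71 in lung (adjusted p = 0.561). The list median was 0.05 in LSEC.

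The enzymes that mature peptide hormones did not pass in any tissue (0 of 10 tested in each by limma; 2, 1 and 1 at an unadjusted p under 0.05 in LSEC, lung and thymus). Pam, the enzyme that amidates adrenomedullin and neuropeptide Y, read 9.61 ± 0.0314 in control and 9.38 ± 0.312 in Cre+ LSEC (SD, n = 3; -0.23, adjusted p = 0.457). Cpe, carboxypeptidase E, differed by -1.18 in LSEC with a wide spread (SE 0.406, adjusted p = 0.126), and was called without LSEC control replicate 2 or without Cre+ replicate 2.

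Of 33 genes tested in the cAMP signalling list, 1 was called higher and 3 lower in Cre+ LSEC, where 2.81% of all genes were called higher and 3.25% lower. The list median was 0.01. Prkar2b, a regulatory subunit of protein kinase A, rose by 1.78 from 8.27 ± 0.262 to 10.05 ± 0.376 (SD, n = 3 each; adjusted p = 0.000602), a level near that of lung endothelium (10.01 in control). The phosphodiesterases Pde4b and Pde2a, which break down cyclic nucleotides, fell by 0.84 and 0.81 (-0.84 and -0.81, adjusted p = 0.00468 and 0.02), and the receptor adaptor Arrb1 by 0.56 (-0.56, adjusted p = 0.013). Prkar2b, Pde4b and Arrb1 were called whichever LSEC array was left out; Pde2a was lost without LSEC control replicate 1 or 2 or Cre+ replicate 1 or 2. None of the 33 was called in lung or thymus, where 3 and 4 were at an unadjusted p under 0.05. In lung Pde2a, Pde4b, Arrb1 and Prkar2b differed by -0.82, -0.61, -0.25 and -0.03, so the lack of a call there does not show that Pde2a and Pde4b were unchanged.

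Of 27 genes tested in the hypoxia response list, which hold targets of the same factors as Adm, 6 fell and 1 rose in Cre+ LSEC, where 3.25% of all genes fell and 2.81% rose. The median was -0.23, against 0.01 for all genes, and 22 of the 27 were below 0. Ndrg1 fell by 1.22 (-1.22, adjusted p = 0.0118), Ankrd37 by 1.03 (-1.03, adjusted p = 0.000766), the glycolytic regulator Pfkfb3 by 0.70 (-0.70, adjusted p = 0.0032) and Mxi1, a Myc antagonist, by 0.65 (-0.65, adjusted p = 0.00505). Hif1a, which encodes the oxygen-regulated factor subunit, was the one that rose, from 11.52 ± 0.0796 to 12.06 ± 0.0527 (SD, n = 3 each; 0.54, adjusted p = 0.0162); it is named outside the rule, after its value was seen.

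Leaving out 1 LSEC array left 4 to 6 of the hypoxia genes lower and 0 or 1 higher. It was 4 without LSEC control replicate 3 or Cre+ replicate 1, and Hif1a was lost without control replicate 3 or Cre+ replicate 3; Ndrg1, Ankrd37, Pfkfb3 and Mxi1 stayed called in all 6. In lung none of the 27 was called, also 0 at an unadjusted p under 0.05, with a median of 0.05, and in thymus Mxi1 fell (-0.74, adjusted p = 0.0417), a call that held in 1 of the 4 fits without a thymus array, that without Cre+ replicate 2.

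Among 20 tested genes of other vasoactive peptides and their receptors, 3 were called higher in Cre+ LSEC and none lower, beside the same shares of all genes. The list median was -0.11, with 13 of the 20 below 0. Ednrb, an endothelin receptor, rose by 1.84 from 10.65 ± 0.234 to 12.50 ± 0.165 (adjusted p = 9.63e-05), the natriuretic peptide Nppb by 1.50 from 7.59 ± 0.346 to 9.09 ± 0.534 (adjusted p = 0.00379) and the natriuretic peptide receptor Npr2 by 0.92 (adjusted p = 0.0228; SD, n = 3 each). Npr2 was lost without control replicate 2 or 3 or Cre+ replicate 1 or 3. In lung the one call was a fall of Aplnr, the apelin receptor, from 8.62 ± 0.21 to 6.20 ± 0.088 (SD, n = 2 each, -2.41, adjusted p = 0.0228). That call was lost when either lung control or either lung Cre+ array was left out (adjusted p = 0.0632 to 0.292), while the difference stayed between -2.56 and -2.27. At an unadjusted p under 0.05 there were 3 of the 20 in lung. Edn1 and Ednrb differed there by -1.35 and 0.72 (adjusted p = 0.0999 and 0.561). None of the 20 was called in thymus (3 at an unadjusted p under 0.05).

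**Figure D4:**
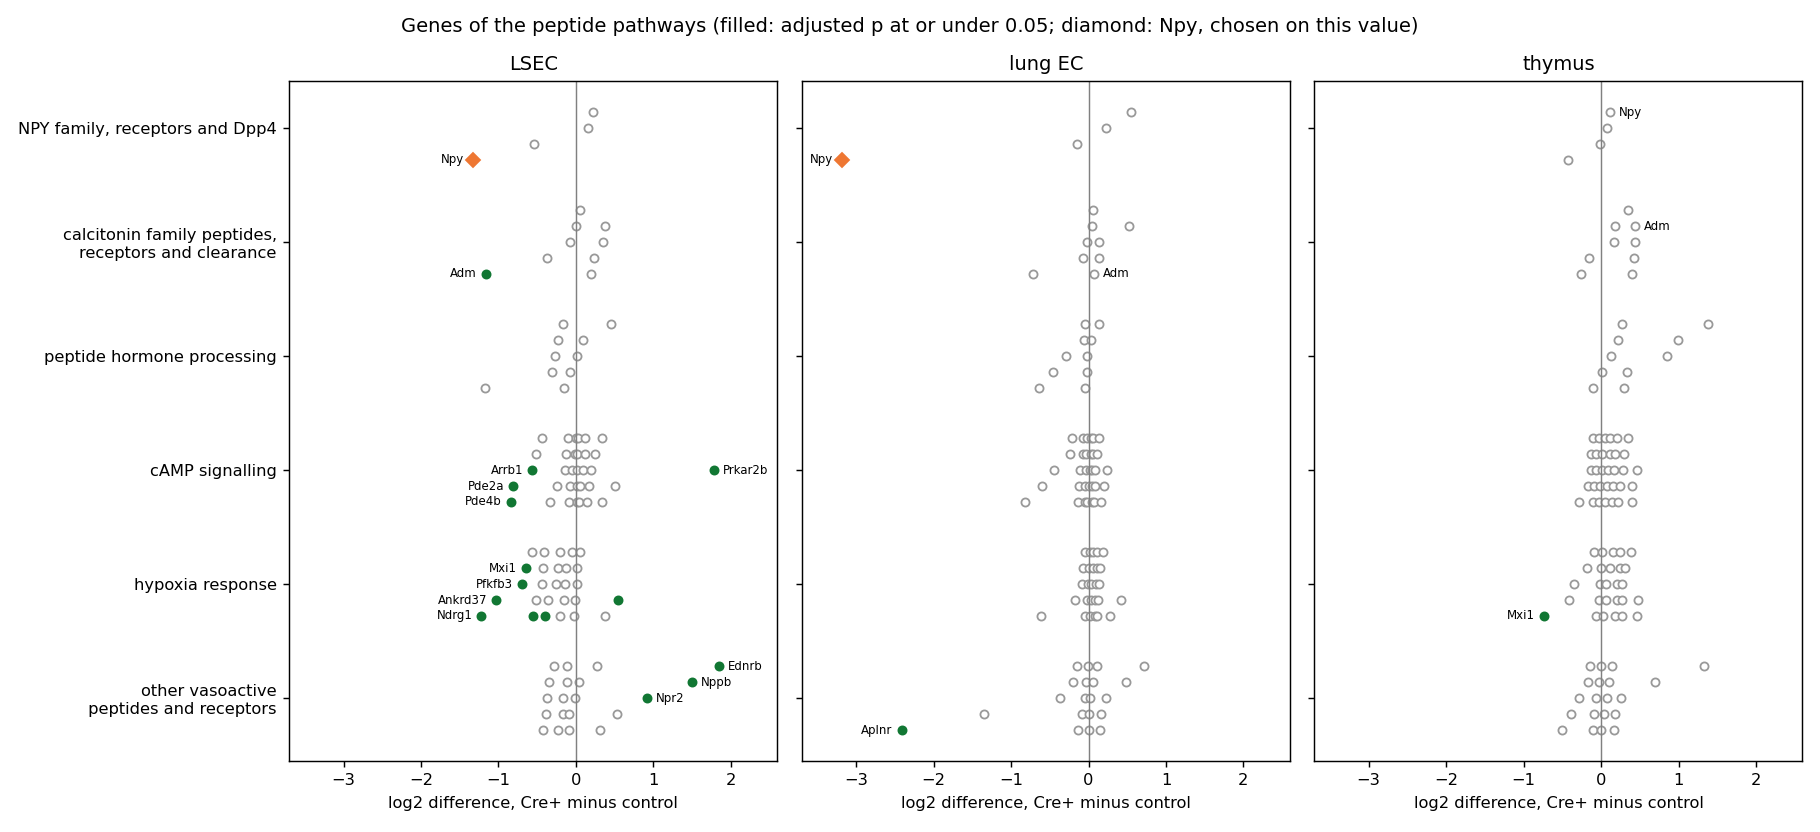
Difference of Cre+ from control (log2, horizontal axis) for the tested genes of the 6 lists (rows) in LSEC, lung endothelium and thymus; points are genes, filled where the adjusted p is at or under 0.05, and diamonds are the Npy values that chose the gene. Filled points in LSEC lie mostly left of 0 in the hypoxia list (6 lower, 1 higher) and right of 0 among the other vasoactive genes (3 higher).

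For each member the genes with the most similar levels were found by Pearson r over the 14 arrays, which share 3 tissues, so r mostly follows the tissue differences. For Npy these were Bmp2, a growth factor of the endothelium (r = 0.93), Zfand5 and Kit (0.929 each); Bmp2, found by its likeness to Npy, had Cre+ minus control log2 differences of -1.60 in LSEC and -1.59 in lung, given as a description. For Adm they were Ccn2, Gng11 and Nucb2 (0.997 each), for Calcrl Bri3 (0.994), Tmem192 and Ccnyl1 (0.992), and for Ramp2 Yap1 (0.996), Inpp5a and Tusc3 (0.992). For Ramp1 they were AI504432 (0.996), Itm2a and H2az2 (0.995), and for Ramp3 Il11 (0.981), Osr1 (0.976) and Emp2 (0.971).

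After each tissue mean was subtracted, the genes nearest Npy were Prag1 (0.924), the placental growth factor gene Pgf (0.91) and Azin1 (0.905). Pgf, found by its likeness to Npy, had Cre+ minus control differences of -1.21 in LSEC and -1.65 in lung. Those nearest Adm were the sinusoidal markers Lyve1 (0.979) and Fcgr2b (0.953) and 2510009E07Rik (0.947). Lyve1 differed between Cre+ and control by -3.45 in LSEC and -0.09 in lung, and Fcgr2b by -2.21 and -0.17. Both were found by their likeness to Adm, so the order of beds they share with it follows from that choice. Lyve1 was also bright in control lung (11.14, against 11.83 in control LSEC). For Calcrl they were Coa6 (0.93), Nol3 (0.916) and Rnf138 (0.914), for Ramp1 Calhm2 (0.94), Dlg5 (0.929) and Arl2bp (0.91), for Ramp2 Snx7 (0.941), Cnn2 (0.938) and Amotl2 (0.925), and for Ramp3 9230116N13Rik (0.886), Bud31 (0.877) and S100a4 (0.872). These values are descriptions over arrays that share groups.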

How the data were processed

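The authors deposited a table of 1 value for each probe set on each array, between 0 and 13.8. The values were read as log2 from that range; the log base and how the authors summarised, background-corrected and scaled the deposited log2 values stand in no source used here. Each array has 223 to 312 values of exactly 0, and array medians ran from 6.75 to 7.04, so arrays were quantile normalized. Probe sets were named from the platform annotation; promoters came from RefSeq (GRCm38.p6).

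Each gene took the values of its brightest single-symbol probe set and was tested where its highest tissue mean reached 6.87, the 40th percentile. A linear model with a mean for each of the 6 groups was fitted over the 14 arrays in limma 3.58.1 in R 4.3.3 (lmFit and eBayes, 8 residual and 3.21 prior degrees of freedom), with Benjamini-Hochberg adjustment within each comparison, and checked on simulated data. The number of arrays per group limits the precision. The rule for named genes was the members, the floxed genes and the 3 most similar genes per member. It also took up to 4 called genes per list and comparison, by size of change. Dpp4, Pyy, Npy4r, Adm2, Ackr3, Pam, Cpe, Hif1a, Edn1, Slc2a1, Kdm3a and the cell type markers named lie outside that rule. They were picked after their values were seen. The members and lists were chosen with earlier results of these data known. Alternatives were other scalings, filters, probe set rules, variance models, array weights, only the arrays compared, a block for the replicate number and the omission of each array in turn; 5 were added after seeing the data: a block with lung numbers crossed and leave-one-out for single probe sets and lists, and the block for lists.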

Additional observations from a re-analysis of the deposited data

Results flagged for a closer look

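The Cre+ effect on Adm differed between tissues in a test of the difference itself. It was -1.24 (log2) when the lung endothelial effect was subtracted from the LSEC effect (limma, adjusted p = 0.00901) and -1.61 when the thymus effect was subtracted (adjusted p = 0.000771). Adm was lower in 3 of 3 Cre+ LSEC arrays than in any control LSEC array, overlapped between the lung groups and was higher in both Cre+ than in both control thymus arrays. Both thymus means were under the filter limit. Groups did not overlap for 23.7% of all genes in LSEC and 41.6% in thymus. The second probe set overlapped between the thymus groups (-0.05). Its LSEC effect minus the thymus effect was -1.22 (adjusted p = 0.00804 in the limma fit on single probe sets). Over the alternatives the first adjusted p ran from 0.00133 to 0.13 and the second from 6.58e-05 to 0.0426.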

How the results depend on the processing

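The fall of Adm in LSEC kept its direction and its call under all 16 alternatives run (-1.22 to -1.11, adjusted p from 4.59e-06 to 0.00601). With a variance trend and robust fit, 2 members in place of 1 were called in LSEC, Ramp2 being the second. Leaving out 1 array gave 1 to 2 members called in LSEC, 0 to 1 in thymus (Adm without Cre+ replicate 1) and 0 to 1 for the LSEC effect minus the lung effect. Same-numbered replicates did not deviate together (r of -0.235 in lung, -0.309 to -0.0914 in LSEC and 0.0521 in thymus), so the numbers were not taken as pairs. With a replicate block the members called for the LSEC effect minus the lung effect went from 1 to 0 (Adm -1.24, adjusted p = 0.13), and likewise to 0 with the lung numbers crossed (adjusted p = 0.0962); the block, which was not run between control tissues, changed no other call of members in the Cre+ comparisons and their differences, and the cause was not tested. Among list genes the block ended the LSEC calls of Pde2a, Arrb1, Hif1a, Slc2a1, Kdm3a and Npr2, the lung call of Aplnr (adjusted p = 0.231) and the thymus call of Mxi1. Ramp1 turned its sign in control tissues because another of its probe sets became the brightest: with median centring it was 0.64 for LSEC minus thymus and 0.60 for lung minus thymus, and as deposited 0.43 and 0.47; the probe set 1417481_at itself kept its sign. Among all genes, 54 calls in thymus became 34 with median centring (14 higher, 20 lower) and 28 as deposited (12 higher, 16 lower). Without LSEC control replicate 2 the calls among all genes in LSEC numbered 500 in place of 790. Over the alternatives these calls ran from 352 (replicate block) to 939 (variance trend and robust fit) in LSEC, from 0 (replicate block) to 54 (array weights) in lung, from 4 (only the arrays compared) to 241 (without Cre+ replicate 1) in thymus, and from 1 (replicate block) to 168 (array weights) in place of 80 for the LSEC effect minus the lung effect. The 2 arrays per group in lung and thymus, and intensities near the filter limit for Npy1r, for Ramp3 in LSEC and for Adm in thymus, limit what could be called.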
